A study of Mus musculus with 16 samples.

Results

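The arrestin-domain proteins are cytosolic adaptors that share the bilobed fold of the visual and beta-arrestins. The genes Arrdc1, Arrdc2, Arrdc3, Arrdc4 and Txnip, which encode 5 of them, were followed in mouse quadriceps muscle that lacked histone deacetylase 3 (HDAC3) or carried it, after treadmill running and at rest. These 5 genes, of 24354 rows in each deposited table, were chosen by gene name after the expression values of all 12 libraries had been looked at. Their own differences between groups are therefore given as descriptions, without a p-value.

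The 12 RNA-seq libraries fell into 4 groups of 3: HDAC3KO after exercise, WT after exercise, HDAC3KO at rest and WT at rest. All came from 4-month-old male mice on a background labelled C57B/6, and the quadriceps was the tissue throughout. The exercised mice ran 3 bouts of 1 h at 10 m/min with 1 h rests between them, and muscle was taken 2 h after the last bout. The labels name no Cre driver for the knockout and do not say whether the 3 libraries of a group came from separate animals, so the p-values below measure only the spread between libraries, which may be technical. The series also holds 4 GRO-seq libraries, which were not analysed here.

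Arrestin-domain proteins carry PPxY motifs that recruit NEDD4-type ubiquitin ligases to membrane proteins, which are then sorted into endosomes. Txnip, thioredoxin-interacting protein, also binds reduced thioredoxin and promotes the internalisation of the glucose transporters GLUT1 and GLUT4, so that a high Txnip level lowers glucose uptake. Txnip and Arrdc4 are known targets of the glucose-sensing transcription factors MondoA (Mlxip) and ChREBP with their partner Mlx, which bind paired E-box-like carbohydrate response elements. Arrdc3 is known as an adaptor for integrin beta4, Arrdc1 for driving the budding of vesicles at the plasma membrane, and Arrdc2 and Arrdc3 are induced by glucocorticoids in several tissues. In muscle, Txnip and several of its relatives are sensitive to fasting and exercise.

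The bases just upstream of the start sites are shown for the 4 genes whose values the results turn on, because the members differ there in the elements named above. RefSeq gave windows for all 5 genes, on GRCm38.p6, which is not the mm9 build of the tables, and the coordinates apply to the sequences only. Each window holds the 250 bases before the start site, read 5′ to 3′ on the gene's strand, and Arrdc3 has 3 annotated start sites, of which the first is shown. Capitals mark the E-box CACGTG, the paired element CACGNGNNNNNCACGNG, the FoxO core GTAAACA and the CCAAT box, each on either strand.
Txnip, chr3:96557707-96557956, plus strand: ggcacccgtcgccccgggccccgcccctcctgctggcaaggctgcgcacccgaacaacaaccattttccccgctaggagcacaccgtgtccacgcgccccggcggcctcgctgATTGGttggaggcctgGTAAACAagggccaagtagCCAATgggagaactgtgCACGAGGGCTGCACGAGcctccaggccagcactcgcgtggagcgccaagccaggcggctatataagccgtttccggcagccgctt
Arrdc4, chr7:68749239-68749488, minus strand: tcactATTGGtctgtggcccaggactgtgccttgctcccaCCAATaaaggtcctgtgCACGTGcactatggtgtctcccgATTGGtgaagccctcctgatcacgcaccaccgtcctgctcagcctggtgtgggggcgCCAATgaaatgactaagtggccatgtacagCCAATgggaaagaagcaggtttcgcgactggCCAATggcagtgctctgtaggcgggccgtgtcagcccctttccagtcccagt
Arrdc2, chr8:70839721-70839970, minus strand: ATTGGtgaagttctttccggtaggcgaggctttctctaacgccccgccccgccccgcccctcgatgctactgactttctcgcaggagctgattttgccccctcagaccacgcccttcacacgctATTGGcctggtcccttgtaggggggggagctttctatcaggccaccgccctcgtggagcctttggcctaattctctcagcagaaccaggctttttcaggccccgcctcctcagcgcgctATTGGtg
Arrdc3, chr13:80883134-80883383, plus strand: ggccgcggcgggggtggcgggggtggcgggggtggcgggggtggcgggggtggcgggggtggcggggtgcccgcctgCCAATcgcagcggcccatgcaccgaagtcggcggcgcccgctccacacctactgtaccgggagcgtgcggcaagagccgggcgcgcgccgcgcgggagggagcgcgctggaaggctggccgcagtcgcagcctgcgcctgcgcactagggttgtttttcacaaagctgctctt

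The Txnip window held the paired element as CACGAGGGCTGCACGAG, at -85 to -69, which 0.0457% of all 32851 promoter windows also held. It also held the FoxO core, at -121 to -115, a sequence in 3.17% of all windows, and 2 CCAAT boxes, which 33.8% of all windows have at least 1 of. The Arrdc4 window held 1 E-box at -193 to -188, a sequence in 6.02% of all windows, and 6 CCAAT boxes. The Arrdc2 window held 3 CCAAT boxes, and the Arrdc3 window held 1 and was the richest of the 5 in G and C, at 76%, against 58% for Arrdc4. A match of letters is a description and not a shown binding site.

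The deposited values are FPKM, fragments scaled to transcript length and to the mapped fragments of the library, so levels can be set beside each other between genes. Cuffdiff normalized the exercise and the rest tables separately. HDAC3KO and WT libraries were tested against each other within each table, by limma on log2(FPKM + 1), with Benjamini-Hochberg adjustment over all genes the authors tested. The change of that difference between the tables was tested in 1 limma fit over all 12 libraries, and exercise was not tested against rest. A gene outside the 5 members is said to have risen or fallen where limma's adjusted p and the q-value of the authors' deposited table were both at or below 0.05 in the same direction.

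The library labels were checked first on Hdac3. Hdac3 averaged 5.27 ± 1.12 FPKM in HDAC3KO and 30.2 ± 2.30 FPKM in WT muscle after exercise (SD, n = 3 each), a log2 difference of -2.33 (SE 0.15, limma adjusted p = 0.00111). At rest it averaged 6.65 ± 1.36 FPKM in HDAC3KO and 29.3 ± 4.99 FPKM in WT muscle (SD, n = 3 each), a log2 difference of -1.99 (SE 0.17, limma adjusted p = 0.00487). Of 8 skeletal muscle fibre markers, all tested, limma and the authors' deposited table called 0 in either table, with 1 in each at an unadjusted limma p under 0.05. Limma also called 0 of the slow fibre, neutrophil, endothelial, fibroblast, adipocyte, red blood cell and Schwann cell markers in either table. At an unadjusted p under 0.05 limma had 1 slow fibre and 1 Schwann cell marker after exercise, and 1 slow fibre and 1 fibroblast marker at rest. The authors' deposited table called 1 slow fibre marker lower and 3 neutrophil markers higher after exercise, and 2 fibroblast and 4 neutrophil markers lower at rest. A pair of libraries stood apart for neutrophil markers. Their summed level was 348 FPKM in HDAC3KO library 3 after exercise and 530 FPKM in WT library 2 at rest, against 1.52 to 13.2 FPKM in the other exercise libraries and 3.49 to 10.1 FPKM in the other resting ones. In bulk muscle, fewer cells of a type and less RNA per cell cannot be told apart.

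The 5 genes lay at very different levels, and their order was nearly the same in every group. Txnip was the highest of the 5 in each group, and Arrdc1 was the lowest, with Arrdc4 next above it. The ratio of the highest mean FPKM to the lowest was 368 in HDAC3KO and 246 in WT muscle after exercise, and 235 in HDAC3KO and 140 in WT muscle at rest. Only Arrdc2 and Arrdc3 exchanged places: Arrdc3 averaged above Arrdc2 in 3 groups, and Arrdc2 above Arrdc3 in resting HDAC3KO muscle. The ranges of this pair overlapped in every group but resting WT. Read within each library, Arrdc3 lay above Arrdc2 in all exercised HDAC3KO and all resting WT libraries. The order was mixed among the libraries of exercised WT and of resting HDAC3KO muscle. Arrdc2 and Arrdc4 also overlapped in both resting groups, and Arrdc2 and Arrdc1 in resting HDAC3KO muscle, while in each group every Txnip library lay above those of the other 4 genes and every Arrdc1 library below those of Arrdc3 and Arrdc4.

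**Figure D1:**
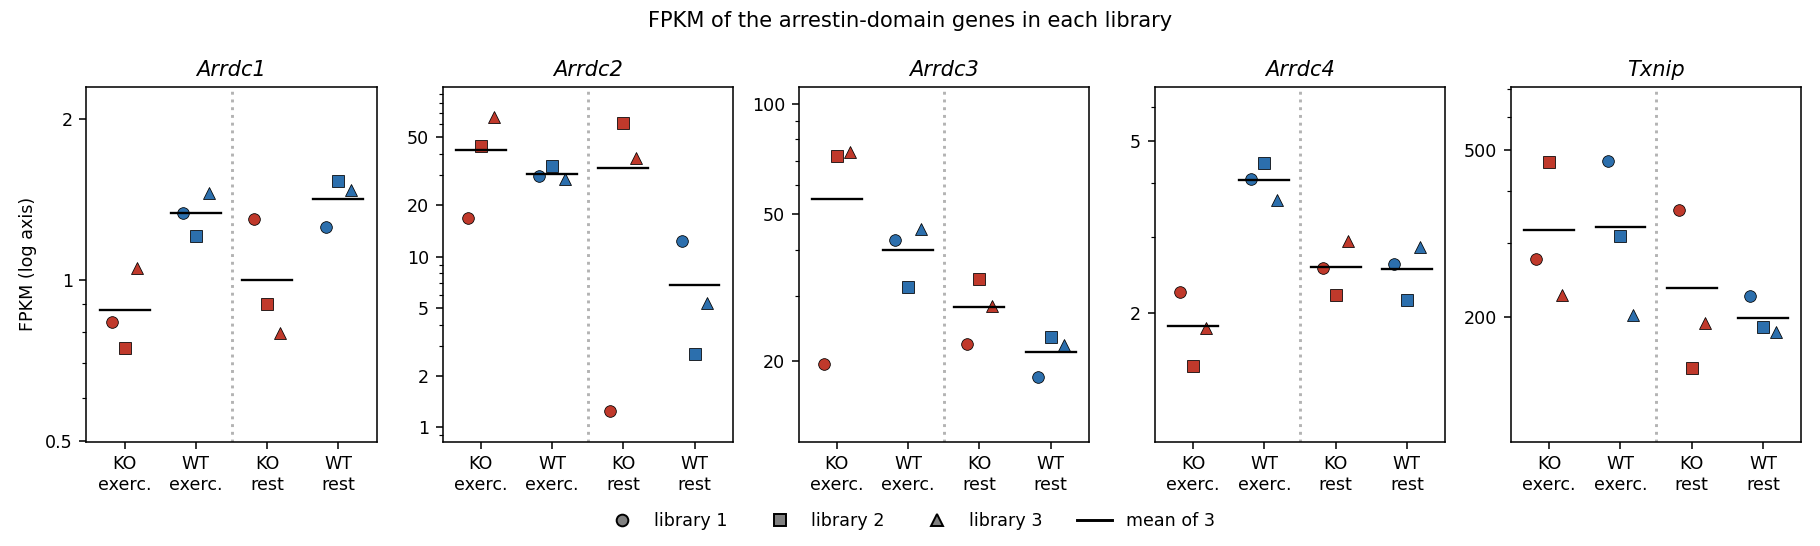
FPKM on a log axis for each of the 5 genes, with 1 point per library, the library number as the marker shape and a bar at the mean of 3; HDAC3KO (KO) is red and WT blue. Arrdc2 spans 1.24 to 60.5 FPKM among the resting HDAC3KO libraries, while the Arrdc4 libraries separate by genotype after exercise, at 1.51 to 2.24 FPKM in HDAC3KO and 3.66 to 4.45 FPKM in WT.

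Arrdc4, an adaptor with functions close to those of Txnip in glucose handling, was the only one of the 4 members tested whose genotype groups did not overlap, which held in the exercise table only. After exercise it had 2.24, 1.51 and 1.85 FPKM in the HDAC3KO libraries, against 4.09, 4.45 and 3.66 FPKM in the WT libraries. Every HDAC3KO library lay below every WT library. The means were 1.86 ± 0.364 FPKM in HDAC3KO and 4.07 ± 0.397 FPKM in WT muscle (SD, n = 3 each), a ratio of 0.458 and a difference of -0.83 (SE 0.15) on the log2(FPKM + 1) scale.

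At rest no such separation was seen in Arrdc4. The resting values were 2.54, 2.20 and 2.93 FPKM in the HDAC3KO libraries, against 2.59, 2.15 and 2.84 FPKM in the WT libraries. Those libraries interleave, with means of 2.56 ± 0.367 FPKM in HDAC3KO and 2.53 ± 0.352 FPKM in WT muscle (SD, n = 3 each) and a log2 difference of 0.01 (SE 0.15). The difference after exercise minus that at rest was -0.84 (SE 0.20) on the log2 scale. Across all 8854 genes tested in both tables, limma called 0% for such a change of the knockout's difference after adjustment, and 433 had an unadjusted p under 0.05.

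The Arrdc4 difference after exercise kept its size in every fit that left out 1 library, between -0.92 without HDAC3KO library 1 and -0.74 without HDAC3KO library 2. In all 6 of these fits, in which fewer samples remain, limma no longer called it. Macrophage markers moved with genotype in the same table: the summed level of 7 markers was 55.8 to 84.5 FPKM in HDAC3KO and 30.2 to 43.4 FPKM in WT libraries, with none of the 7 at 0 in every library. Of 5 macrophage markers tested, 2 rose, Cd68 and Mrc1, while the authors' deposited table called 4 higher and limma's unadjusted p was under 0.05 for 4. Cd68 averaged 4.26 FPKM in HDAC3KO and 0.888 FPKM in WT muscle after exercise (limma adjusted p = 0.0372), and Mrc1 7.10 FPKM in HDAC3KO and 2.80 FPKM in WT muscle (limma adjusted p = 0.0144). With a library left out, Cd68 stayed called in 2 of 6 fits and Mrc1 in 5 of 6, with limma adjusted p-values up to 0.109 for Cd68 and 0.0548 for Mrc1. The part of these cells in the Arrdc4 values was not tested.

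Txnip, the most abundant member, showed no separation of the genotypes. After exercise it had 275, 468 and 225 FPKM in the HDAC3KO libraries, against 471, 313 and 202 FPKM in the WT libraries. Both groups spread more than 2-fold, with a ratio of highest to lowest library of 2.07 in HDAC3KO and 2.33 in WT, and they overlap. The means were 323 ± 128 FPKM in HDAC3KO and 329 ± 135 FPKM in WT muscle (SD, n = 3 each), a log2 difference of -0.01 (SE 0.35) that ran from -0.32 without WT library 3 to 0.29 without WT library 1.

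At rest Txnip had 359.7, 151 and 194 FPKM in the HDAC3KO libraries, against 225, 189 and 184 FPKM in the WT libraries. HDAC3KO library 1 was the highest and HDAC3KO library 2 the lowest of the 6. The means were 235 ± 110 FPKM in HDAC3KO and 199 ± 22.2 FPKM in WT muscle (SD, n = 3 each), a log2 difference of 0.14 (SE 0.29). Its sign turned with single libraries: it was -0.21 without HDAC3KO library 1 and 0.41 without HDAC3KO library 2.

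Arrdc2 had the largest ratio of highest to lowest library among the members in both resting groups. In exercised HDAC3KO muscle its ratio was also the largest, at 3.91, but close to the 3.78 of Arrdc3. In exercised WT muscle its ratio was the smallest, at 1.19, against 2.33 for Txnip. After exercise Arrdc2 had 16.8, 44.6 and 65.6 FPKM in the HDAC3KO libraries, against 29.9, 33.9 and 28.4 FPKM in the WT libraries. The WT libraries lay close together, inside the range of the HDAC3KO ones. The means were 42.3 ± 24.5 FPKM in HDAC3KO and 30.7 ± 2.84 FPKM in WT muscle (SD, n = 3 each), a log2 difference of 0.26 (SE 0.42). Its sign rested on single libraries, at -0.15 without HDAC3KO library 3 and 0.80 without HDAC3KO library 1.

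At rest Arrdc2 had 1.24, 60.5 and 38.0 FPKM in the HDAC3KO libraries, against 12.4, 2.69 and 5.33 FPKM in the WT libraries. HDAC3KO library 1 was the lowest of the 6 and the other two HDAC3KO libraries were the highest, so the groups overlap. The highest library was 48.8 times the lowest in HDAC3KO and 4.60 times the lowest in WT. The means were 33.3 ± 29.9 FPKM in HDAC3KO and 6.79 ± 5.0 FPKM in WT muscle (SD, n = 3 each), a log2 difference of 1.37 (SE 1.17).

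The resting Arrdc2 difference rested on single libraries, at 2.85 without HDAC3KO library 1 and 0.46 without HDAC3KO library 2. It is the only one of the 5 that the authors' deposited table called at rest, and limma did not call it. WT library 2, in which neutrophil markers were high, had the lowest Arrdc2 level of the WT libraries at rest, while after exercise HDAC3KO library 3, also high in those markers, had the highest Arrdc2 level. The part of neutrophil RNA in these values was not tested.

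Arrdc3 followed the same order of HDAC3KO libraries at a smaller span. After exercise it had 19.6, 72.0 and 73.9 FPKM in the HDAC3KO libraries, against 42.5, 31.6 and 45.6 FPKM in the WT libraries. HDAC3KO library 1 lay below all WT libraries and the other two above them. The means were 55.1 ± 30.8 FPKM in HDAC3KO and 39.9 ± 7.33 FPKM in WT muscle (SD, n = 3 each), a log2 difference of 0.25 (SE 0.46) that ran from -0.06 without HDAC3KO library 3 to 0.87 without HDAC3KO library 1.

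At rest Arrdc3 had 22.2, 33.4 and 28.2 FPKM in the HDAC3KO libraries, against 18.1, 23.1 and 22.0 FPKM in the WT libraries. HDAC3KO library 1 lay among the WT libraries and the other two lay above them. The means were 27.9 ± 5.59 FPKM in HDAC3KO and 21.1 ± 2.65 FPKM in WT muscle (SD, n = 3 each), a log2 difference of 0.38 (SE 0.17).

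Arrdc1, the vesicle-budding adaptor, was near 1 FPKM throughout and was not tested by the authors in either table. After exercise it had 0.833, 0.747 and 1.05 FPKM in the HDAC3KO libraries, against 1.34, 1.21 and 1.46 FPKM in the WT libraries. All HDAC3KO libraries lay below all WT libraries, with means of 0.878 ± 0.157 FPKM in HDAC3KO and 1.33 ± 0.122 FPKM in WT muscle (SD, n = 3 each). At rest it had 1.30, 0.902 and 0.797 FPKM in the HDAC3KO libraries, against 1.26, 1.53 and 1.47 FPKM in the WT libraries. HDAC3KO library 1 lay just above WT library 1, so the resting groups overlap, with means of 1.00 ± 0.266 FPKM in HDAC3KO and 1.42 ± 0.145 FPKM in WT muscle (SD, n = 3 each). The log2 difference was -0.32 (SE 0.11) after exercise and -0.28 (SE 0.14) at rest, on a scale that understates changes of low genes.

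**Figure D2:**
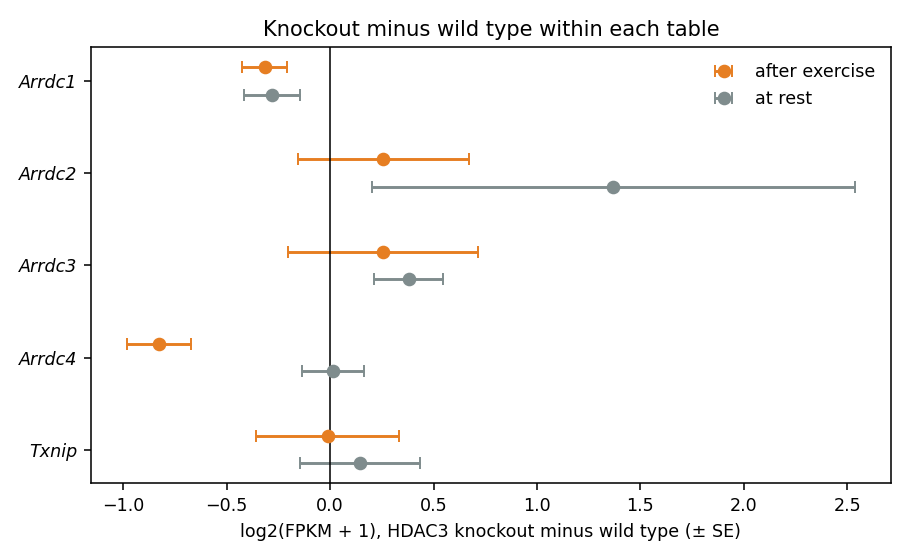
Difference of mean log2(FPKM + 1), HDAC3KO minus WT, for each gene, with 1 SE of the fit on either side; orange is after exercise, grey at rest. Arrdc4 after exercise lies at -0.83, while the wide bar of Arrdc2 at rest, at 1.37, shows the spread of its HDAC3KO libraries.

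The calls over all genes give the background for the 4 members that the authors tested. After exercise limma called 3.73% of 9037 genes, and 9.57% were called in the authors' deposited table. Both called 3.43%, while 26.1% had groups that did not overlap. Arrdc4 was the 1 member of 4 in each of these sets. At rest limma called 4.72% of 9204 genes, and 10.8% were called in the authors' deposited table. Both called 4.27%, while 28% had groups that did not overlap. Of the 4 members, Arrdc2 was called by the authors' deposited table and none met the other rules. The median log2 difference over the 4 was 0.12 after exercise and 0.26 at rest, beside -0.0007 and 0.01 over all genes tested. Since the genes were chosen with these values in view, nothing is read from the counts.

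Running was compared with rest by setting levels beside each other, with no test, because the tables were scaled separately. In HDAC3KO muscle the mean of Arrdc2 after exercise was 1.27 times that at rest, of Arrdc3 1.97 times, of Txnip 1.37 times, of Arrdc1 0.878 times and of Arrdc4 0.728 times, and the exercised and resting libraries overlapped for all 5. In WT muscle the mean of Arrdc2 after exercise was 4.52 times that at rest, of Arrdc3 1.89 times, of Txnip 1.65 times, of Arrdc4 1.61 times and of Arrdc1 0.940 times. In WT muscle every exercised library lay above every resting one for Arrdc2, Arrdc3 and Arrdc4, but not for Txnip or Arrdc1.

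Among all 8854 genes tested in both tables, the middle of the distribution stayed near 0. The difference in log2(FPKM + 1), exercise minus rest, had a median of -0.03 in HDAC3KO muscle, with the 5th and 95th percentiles at -0.37 and 0.41, and a median of 0.0008 in WT muscle, with percentiles at -0.38 and 0.40. Every exercised library exceeded every resting one for 5.87% of these genes in HDAC3KO and for 7.54% in WT muscle. By that measure 0 of 4 members were higher after exercise in HDAC3KO and 3 of 4 in WT muscle. The Arrdc2 difference, 1.11 in HDAC3KO and 2.22 in WT muscle, was above that of 99.5% of genes in HDAC3KO and of 99.9% in WT. The HDAC3KO rank leans on a single low library, resting library 1 at 1.24 FPKM. The other resting HDAC3KO libraries had 60.5 and 38.0 FPKM, and the exercised ones 16.8, 44.6 and 65.6 FPKM. These groups overlapped, and the ratio of their means was 1.27. The Arrdc4 difference, -0.32 in HDAC3KO and 0.52 in WT muscle, was above that of 7.22% of genes in HDAC3KO and of 97.0% in WT.

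**Figure D3:**
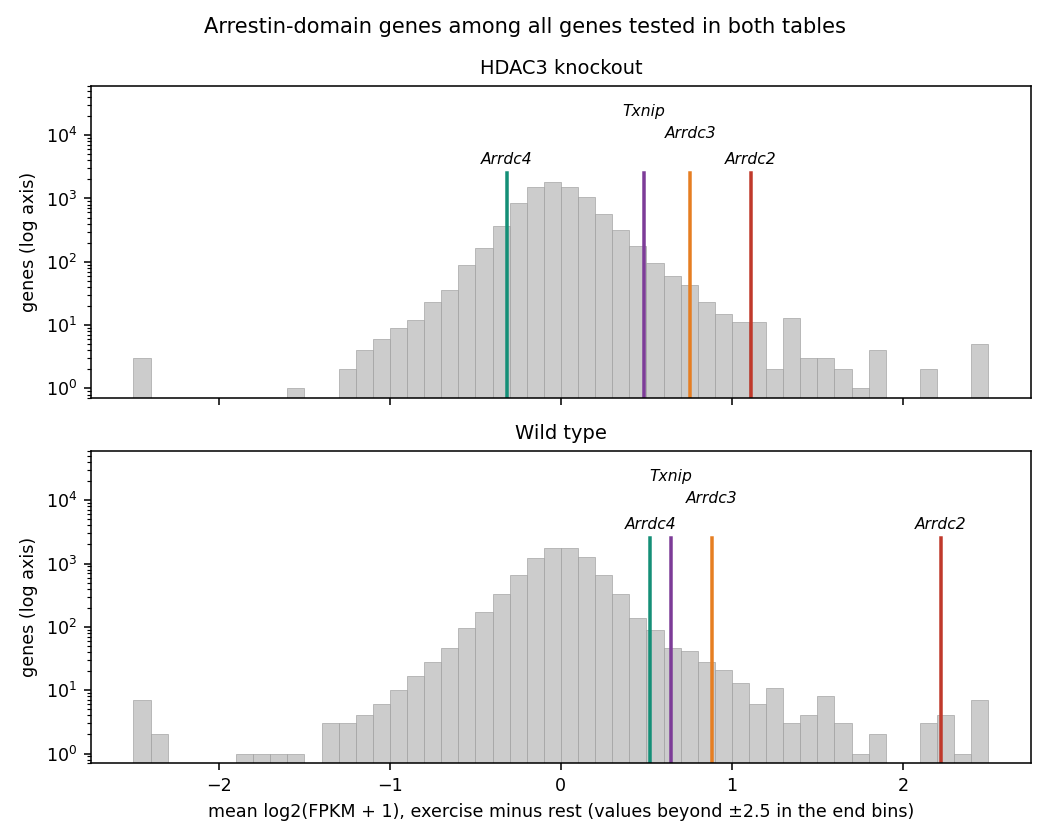
Histograms of the difference in mean log2(FPKM + 1), exercise minus rest, over the 8854 genes tested in both tables (gene number on a log axis), for HDAC3KO above and WT below, with coloured lines at 4 of the arrestin-domain genes. Arrdc4 lies at -0.32 in HDAC3KO and at 0.52 in WT, and the other 3 lie right of 0 in both genotypes.

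Glucocorticoid and FoxO responsive genes were examined next, since Arrdc2 and Arrdc3 are known targets of that kind. Of 21 such genes tested, 0 rose and 0 fell in either table. Limma alone also called 0 of them, with 4 after exercise and 5 at rest at an unadjusted p under 0.05, and the authors' deposited table called 5 higher and 1 lower after exercise and 8 higher and 1 lower at rest. The median log2 difference over the list was 0.27 after exercise and 0.29 at rest, beside the medians near 0 over all genes given above. Library by library, the list's median deviation from the WT mean at rest was -0.24, 0.76 and 0.71 in the HDAC3KO libraries, against 0.02, -0.06 and 0.06 in the WT libraries. HDAC3KO library 1 was again below the other two HDAC3KO libraries. After exercise it was 0.30, 0.13 and 0.31 in the HDAC3KO libraries, against 0.07, -0.10 and 0.02 in the WT libraries, and the order of the HDAC3KO libraries was not that of Arrdc2 and Arrdc3.

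Tsc22d3, Fkbp5, Klf15 and Foxo1 showed the resting pattern, but not every gene examined did. Tsc22d3, the glucocorticoid-induced leucine zipper protein, had 208, 352 and 421 FPKM in the HDAC3KO libraries after exercise, against 325, 286 and 311 FPKM in the WT libraries (limma adjusted p = 0.957). At rest Tsc22d3 had 133, 217 and 207 FPKM in the HDAC3KO libraries, against 172, 154 and 164 FPKM in the WT libraries (limma adjusted p = 0.693). In both tables HDAC3KO library 1 was below all WT libraries. Fkbp5, a co-chaperone of the glucocorticoid receptor, had 7.47, 24.6 and 15.3 FPKM in the HDAC3KO libraries at rest, against 17.1, 8.02 and 8.18 FPKM in the WT libraries (limma adjusted p = 0.626). WT library 1 had the highest resting level of its group for Fkbp5, as it did for Arrdc2.

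Klf15, a glucocorticoid-induced regulator of amino acid breakdown, had 8.33, 24.6 and 18.6 FPKM in the HDAC3KO libraries at rest, against 9.77, 7.72 and 13.6 FPKM in the WT libraries (limma adjusted p = 0.404). Foxo1, a transcription factor of the fasting response, had 3.96, 9.69 and 7.77 FPKM in the HDAC3KO libraries at rest, against 6.46, 4.04 and 2.97 FPKM in the WT libraries (limma adjusted p = 0.384). For both, HDAC3KO library 1 lay within the WT range and the other two HDAC3KO libraries above it. The receptor gene Nr3c1 averaged 23.3 FPKM in HDAC3KO and 28.1 FPKM in WT muscle after exercise (limma adjusted p = 0.22). At rest Nr3c1 had 35.6, 33.5 and 31.0 FPKM in the HDAC3KO libraries (limma adjusted p = 0.61). HDAC3KO library 1 was thus the highest of its group. Fbxo32, the atrophy ubiquitin ligase atrogin-1, averaged 141 FPKM in HDAC3KO and 89.3 FPKM in WT muscle after exercise (limma adjusted p = 0.105). The authors' deposited table called Fbxo32 higher after exercise, and Fkbp5, Klf15 and Foxo1 higher at rest, and limma called none of these. At rest Fbxo32 averaged 64.6 FPKM in HDAC3KO and 66.4 FPKM in WT muscle (limma adjusted p = 0.933), with no shift between the genotypes. HDAC3KO library 1 was again the lowest of its group, at 55.8 FPKM, against 79.2 and 58.8 FPKM.

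**Figure D4:**
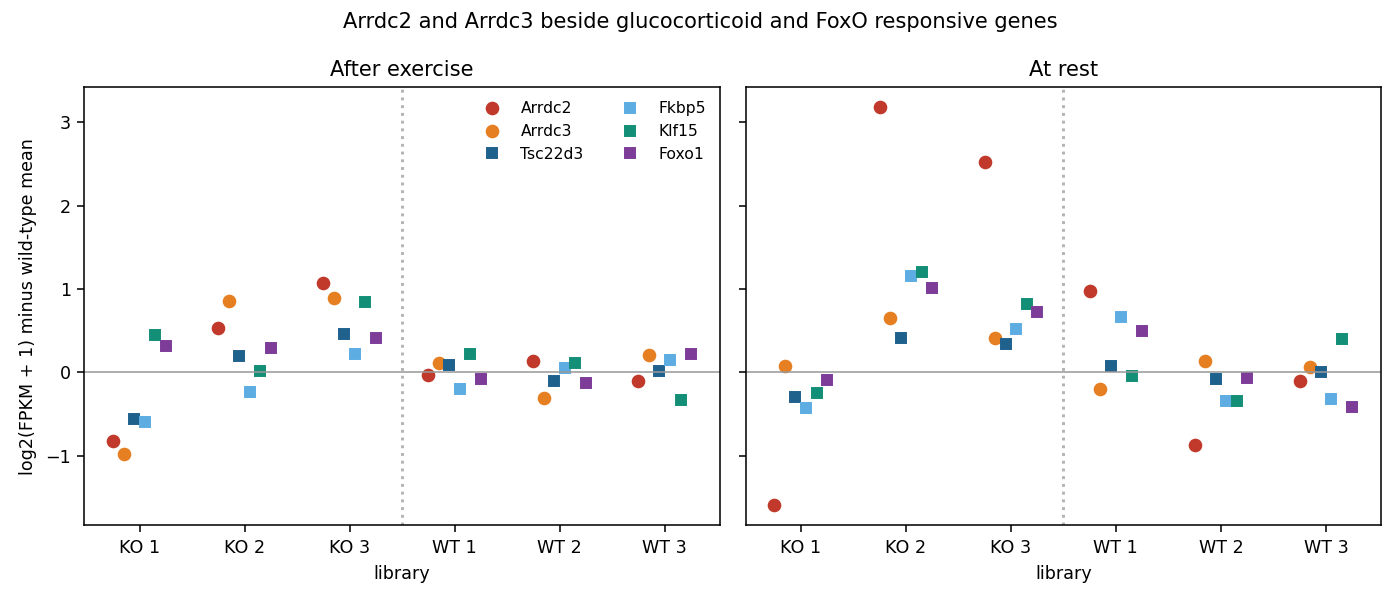
Deviation of log2(FPKM + 1) from the WT mean of the same table in each library, after exercise on the left and at rest on the right, for Arrdc2 and Arrdc3 (circles) and 4 glucocorticoid and FoxO responsive genes (squares). At rest all 6 genes are lower in HDAC3KO library 1 than in the other two HDAC3KO libraries; after exercise this holds for Arrdc2, Arrdc3, Tsc22d3 and Fkbp5.

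The genes with the most similar course over the 12 libraries were found by the mean absolute difference of log2(FPKM + 1), each gene centred on its mean in each table, among 8853 other genes. A flat gene would score a member's own mean absolute deviation, which was 1.00 for Arrdc2. Nearest to Arrdc2 were 8430408G22Rik at 0.604, Glul, glutamine synthetase, at 0.660 and Tob2 at 0.671, against a median of 1.02 over all genes. Glul had 283, 406 and 556 FPKM in the HDAC3KO libraries after exercise, against 431, 317 and 325 FPKM in the WT libraries, and 225, 458 and 345 FPKM in the HDAC3KO libraries at rest, against 181, 96.4 and 91.7 FPKM in the WT libraries. HDAC3KO library 1 was the lowest of its group both times. Arrdc3 itself was the 88th nearest of the 8853 genes to Arrdc2, at 0.854. Ranked from Arrdc3, at that same distance, Arrdc2 was 8757th, so the rank depends on which gene it starts from.

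For Arrdc3, with an own deviation of 0.373, the nearest were Lrrc30 at 0.184, Gfer at 0.213 and Eepd1 at 0.216. Lrrc30 had 72.6, 186 and 255 FPKM in the HDAC3KO libraries after exercise, against 132, 120 and 163 FPKM in the WT libraries. For Arrdc4, with an own deviation of 0.258, they were Stap2 and Lipo1, both at 0.125, and Rassf1 at 0.137. Lipo1 belongs to a multigene family whose reads can be split between copies, which makes its value uncertain. Rassf1 had 6.63, 6.20 and 6.16 FPKM in the HDAC3KO libraries after exercise, against 8.98, 8.97 and 9.60 FPKM in the WT libraries, without overlap. Like the other nearest genes, Rassf1 was picked for its likeness over these same libraries, so a shared separation is no separate result. After exercise 26.1% of all genes tested had groups that did not overlap.

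For Txnip, with an own deviation of 0.353, the nearest were Medag at 0.180, Tm4sf1 at 0.208 and Brip1os at 0.218, the last an antisense RNA gene in tables whose use of strand is not given in the sources used here. Medag had 7.35, 7.15 and 5.04 FPKM in the HDAC3KO libraries after exercise, against 10.3, 6.40 and 6.05 FPKM in the WT libraries. Like Txnip, it was highest in library 1 of the WT group. Among the HDAC3KO libraries after exercise, Medag was highest in library 1 and Txnip in library 2, at 468 FPKM. Arrdc4, which shares regulators with Txnip, was the 4154th nearest gene to it, at 0.388.

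The transcription factors that act on Txnip and Arrdc4, and their other targets, were read beside them. Of 6 genes of the MondoA and Mlx list tested, 0 rose in either table, 1 fell after exercise and 0 fell at rest. Limma's unadjusted p was under 0.05 for 5 of them after exercise and for 3 at rest, the authors' deposited table called 2 higher and 3 lower after exercise and 1 higher and 2 lower at rest, and the list's median log2 difference was -0.38 after exercise and -0.22 at rest. The gene that fell was Pfkfb3, which makes the glycolytic activator fructose 2,6-bisphosphate. It had 2.5, 3.58 and 2.41 FPKM in the HDAC3KO libraries after exercise, against 5.13, 8.12 and 6.81 FPKM in the WT libraries, a log2 difference of -1.0 (SE 0.19, limma adjusted p = 0.0379). Every HDAC3KO library was below every WT library, and the adjusted p stayed within 0.05 in 1 of 6 fits that left out a library. At rest Pfkfb3 averaged 5.01 FPKM in HDAC3KO and 13.3 FPKM in WT muscle, a log2 difference of -1.40 (SE 0.42, limma adjusted p = 0.111). The groups did not overlap there either, and the authors' deposited table called Pfkfb3 lower at rest, while limma did not call it. Mlxip, which encodes MondoA, averaged 13.2 FPKM in HDAC3KO and 8.86 FPKM in WT muscle after exercise (limma adjusted p = 0.0941), and its partner Mlx averaged 5.78 FPKM in HDAC3KO and 7.0 FPKM in WT muscle (limma adjusted p = 0.437). At rest Mlxip averaged 7.47 FPKM in HDAC3KO and 7.16 FPKM in WT muscle, and Mlx 6.21 FPKM in HDAC3KO and 7.41 FPKM in WT muscle, with limma adjusted p-values of 0.947 for Mlxip and 0.482 for Mlx. Mlxipl, which encodes ChREBP, and Hk2, the muscle hexokinase gene of the list, are added here after their values were seen. Mlxipl averaged 4.51 FPKM in HDAC3KO and 6.92 FPKM in WT muscle after exercise (limma adjusted p = 0.174), and 5.06 FPKM in HDAC3KO and 8.25 FPKM in WT muscle at rest (limma adjusted p = 0.105). Hk2 averaged 194 FPKM in HDAC3KO and 91.1 FPKM in WT muscle after exercise (limma adjusted p = 0.108), and 124 FPKM in HDAC3KO and 83.6 FPKM in WT muscle at rest (limma adjusted p = 0.13). The authors' deposited table called Mlxipl lower and Hk2 higher in both tables, and limma called neither.

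Txnip binds thioredoxins, and the genes of the thioredoxin system were read beside it. Of 9 genes tested after exercise, 0 rose and 1 fell, and of 10 tested at rest, 1 rose and 0 fell, with a median log2 difference over the list of 0.01 after exercise and 0.06 at rest. Limma's unadjusted p was under 0.05 for 4 genes of the list in each table. The authors' deposited table called 2 higher and 1 lower after exercise, and 2 higher and 0 lower at rest. Prdx2, a peroxide-removing enzyme recharged by thioredoxin, had 93.3, 80.0 and 104 FPKM in the HDAC3KO libraries after exercise, against 127, 146 and 141 FPKM in the WT libraries, a log2 difference of -0.58 (SE 0.13, limma adjusted p = 0.0498). Txnrd1, the cytosolic thioredoxin reductase, had 45.4, 38.5 and 37.1 FPKM in the HDAC3KO libraries at rest, against 28.3, 26.8 and 28.6 FPKM in the WT libraries, a log2 difference of 0.51 (SE 0.11, limma adjusted p = 0.0417). Each gene was on the same side in the other table, again without overlap of the groups: Prdx2 averaged 102 FPKM in HDAC3KO and 127 FPKM in WT muscle at rest (log2 difference -0.32, limma adjusted p = 0.0981). Txnrd1 averaged 59.4 FPKM in HDAC3KO and 40.4 FPKM in WT muscle after exercise (log2 difference 0.54, limma adjusted p = 0.193). Neither call stayed in any of the 6 fits that left out a library, whose adjusted p ran from 0.069 to 0.16 for Prdx2 and from 0.0743 to 0.163 for Txnrd1. Txn1, thioredoxin itself, averaged 49.5 FPKM in HDAC3KO and 38.4 FPKM in WT muscle after exercise (limma adjusted p = 0.162), and 51.5 FPKM in HDAC3KO and 37.0 FPKM in WT muscle at rest (limma adjusted p = 0.0517). Its groups did not overlap in either table, and the authors' deposited table called Txn1 higher at rest only.

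Among the ubiquitin ligases that arrestin-domain proteins recruit, and their sorting partners, 0 of 15 genes tested rose or fell after exercise, while 1 rose and 0 fell at rest. After exercise limma's unadjusted p was under 0.05 for 2 of them, and the authors' deposited table called 2 lower and 0 higher. The median log2 difference over the list was -0.11 after exercise and -0.06 at rest. The gene that rose was Nedd4 itself, with 188, 179 and 180 FPKM in the HDAC3KO libraries at rest, against 138, 131 and 122 FPKM in the WT libraries. The groups did not overlap, and the log2 difference was 0.48 (SE 0.09, limma adjusted p = 0.0326). The call stayed in 1 of 6 fits that left out a library, whose adjusted p ran from 0.0462 to 0.133. After exercise Nedd4 averaged 152 FPKM in HDAC3KO and 132 FPKM in WT muscle (limma adjusted p = 0.393). The related ligase Wwp1 averaged 104 FPKM in HDAC3KO and 120 FPKM in WT muscle after exercise (limma adjusted p = 0.375), and 123 FPKM in HDAC3KO and 122 FPKM in WT muscle at rest (limma adjusted p = 0.925). Itch, another such ligase, had limma adjusted p-values of 0.289 after exercise and 0.573 at rest.

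Of 8 glucose transporters and other cargo genes tested, 0 rose or fell after exercise, and at rest 0 rose and 1 fell. After exercise limma's unadjusted p was under 0.05 for 0 of them, and the authors' deposited table called 1 higher and 1 lower. The median log2 difference over the list was 0.05 after exercise and 0.13 at rest. Slc2a3, encoding the glucose transporter GLUT3, had 0.899, 1.17 and 1.26 FPKM in the HDAC3KO libraries at rest, against 2.76, 3.42 and 3.86 FPKM in the WT libraries. No HDAC3KO library reached the lowest WT one, and the log2 difference was -1.04 (SE 0.16, limma adjusted p = 0.0189). It stayed called in 2 of 6 fits that left out a library, whose adjusted p ran from 0.0315 to 0.0829. After exercise Slc2a3 averaged 1.32 FPKM in HDAC3KO and 2.84 FPKM in WT muscle, with overlapping libraries and a log2 difference of -0.73 (limma adjusted p = 0.289), and it was the gene of the list that the authors' deposited table called lower. Slc2a4, which encodes GLUT4, averaged 224 FPKM in HDAC3KO and 212 FPKM in WT muscle after exercise (limma adjusted p = 0.815). Slc2a1, which encodes GLUT1, averaged 4.01 FPKM in HDAC3KO and 2.16 FPKM in WT muscle after exercise (limma adjusted p = 0.301), and 3.26 FPKM in HDAC3KO and 2.12 FPKM in WT muscle at rest (limma adjusted p = 0.209).

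The other genes of the arrestin fold gave 0 called of 6 tested in each table, by limma and in the authors' deposited table, with 1 gene in each at an unadjusted limma p under 0.05 and a median log2 difference of 0.14 after exercise and -0.10 at rest. Arrb1, beta-arrestin 1, averaged 3.69 FPKM in HDAC3KO and 3.41 FPKM in WT muscle after exercise (limma adjusted p = 0.790), and 3.15 FPKM in HDAC3KO and 3.56 FPKM in WT muscle at rest (limma adjusted p = 0.614). Arrb2, beta-arrestin 2, averaged 2.18 FPKM in HDAC3KO and 1.77 FPKM in WT muscle after exercise (limma adjusted p = 0.635), and 2.45 FPKM in HDAC3KO and 2.92 FPKM in WT muscle at rest (limma adjusted p = 0.768). Arrdc5, another gene of the family, was not tested by the authors and averaged 0.445 FPKM in HDAC3KO and 0.672 FPKM in WT muscle after exercise. The cone arrestin gene Arr3 was listed at 0 in all 12 libraries.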

How the data were processed

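Quadriceps RNA was sequenced in 12 libraries, 3 for each of 4 groups. Per the submitters' processing notes, the tools were TopHat2, Bowtie, Cuffdiff and HOMER and the build mm9; versions, annotation and strand use are not given in the sources used here. The authors deposited 1 Cuffdiff table for exercise and 1 for rest, each normalized on its own, with FPKM per library and the authors' p-values and q-values. FPKM summed to 454359 to 522966 per library; no counts were used here, so depth is unknown. No pair of libraries shared more than 1 of 8946 values.

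FPKM were transformed to log2(FPKM + 1) and fitted with limma 3.58.1 (intensity trend, R 4.3.3) per table, for the 9204 genes at rest and 9037 after exercise that the authors tested and whose names were usable; 27 date-like names in the exercise table were left out. The knockout's difference after exercise minus that at rest was fitted over all 12 libraries for the 8854 genes tested in both tables. P-values were adjusted by Benjamini-Hochberg over those genes, with a threshold of 0.05. Arrdc1 lay outside this set, and its SE comes from the fit with no filter. The procedure was tested on simulated data. Genes named are the 5 members, Hdac3, listed genes called by both limma and the authors' q, a fixed set of pathway genes, and the 3 nearest patterns per member; Glul, Lrrc30, Rassf1 and Medag were chosen for their library values among the nearest. The members and lists were chosen with earlier results of these data known. Alternatives were another pseudocount, no filter, a mean FPKM of at least 1, rescaling, a replicate block, each library left out, and a q of 0.01. One listed gene is not reported here.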

Additional observations from a re-analysis of the deposited data

How the results depend on the processing

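Limma called 337 genes after exercise and 434 at rest. Without the filter on genes the authors tested it called 53 after exercise and 98 at rest, and with the replicate number as a block 170 after exercise and 52 at rest. Leaving out 1 library gave 70 to 103 calls after exercise and 20 to 292 at rest. The 20 calls at rest came without WT library 2, the resting library high in neutrophil markers. After exercise WT library 2 was not high in them, at 1.52 FPKM. The change of the knockout's difference between tables was called for 0 genes, for 8 with no filter, and for 0 to 1 with a library left out. At a q of 0.01 the authors' deposited table called 492 genes after exercise, against 865 at 0.05, and 605 at rest, against 998. With a pseudocount of 0.1, the log2 difference of Arrdc4 after exercise was -1.10, and that of Arrdc1 was -0.56 after exercise and -0.49 at rest. Same-numbered HDAC3KO and WT libraries deviated with r of 0.03, -0.33 and -0.18 after exercise and -0.003, 0.05 and 0.05 at rest. For differently numbered ones r ran from -0.14 to 0.36 after exercise and from -0.13 to 0.08 at rest. With 3 libraries per group this check cannot tell whether the numbers pair the libraries. With the block, limma no longer called Arrdc4 after exercise, nor Prdx2 after exercise (adjusted p = 0.111), nor Nedd4 (adjusted p = 0.0801), Slc2a3 (adjusted p = 0.0577) and Txnrd1 (adjusted p = 0.088) at rest. Arrdc4 after exercise was also not called with no filter, but was with the other pseudocount, the minimum mean and rescaling. Arrdc1 gave no value under rescaling and the block. The cause of these changes was not tested. Among the 5 members, Hdac3, the fixed set of pathway genes and the listed genes called by both, no called difference changed sign. Sign changes among the other called genes were not checked. Leaving out 1 library did turn signs among differences that limma had not called, for the 5 members those of Arrdc2 (-0.15 to 0.80), Arrdc3 (-0.06 to 0.87) and Txnip (-0.32 to 0.29) after exercise, and Arrdc4 (-0.07 to 0.09) and Txnip (-0.21 to 0.41) at rest. Low FPKM of Arrdc1 and Arrdc4 and the unknown depth limit what their differences can show.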
